A study of Mus musculus with 4 samples.

Results

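Aldh1a2, Rdh10, Dhrs3, Rara, Rxra and Vdr are 6 of the 26033 genes in the count matrices. They were chosen by name as genes of retinoic acid synthesis and turnover, of 2 of its nuclear receptors and of the vitamin D receptor, and their UMIs (unique molecular identifiers, each counted as 1 captured RNA molecule) were read in every class of cell. They were also selected on their UMI levels by class and genotype, with the difference between Csf2-/- and Csf2+/- already known, so their values by genotype are a description. A count of adjusted p-values is set once beside the share over all genes. The settings where such a value missed the threshold are also given, and nothing is read from either. Rdh10 oxidises retinol to retinal and Dhrs3 reduces retinal back to retinol. Aldh1a2 oxidises retinal to retinoic acid, which binds receptors such as Rara in a pair with a retinoid X receptor such as Rxra. Vdr binds the active form of vitamin D and also pairs with retinoid X receptors. Retinoic acid made by dendritic cells (DCs) is known to instruct lymphocytes to home to the gut, and GM-CSF, the product of Csf2, is one of the signals known to raise Aldh1a2 in cultured DCs.

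The study profiled CD45+ cells, the surface mark of blood-derived cells, sorted from the salivary glands of mice aged 20 days by droplet single-cell RNA sequencing of transcript 3′ ends. It compared Csf2-/- with Csf2+/- mice (strain given as C56BL/6), so that the control animals also carried 1 inactive Csf2 allele. Each genotype had 1 female and 1 male library, and each library was pooled from 2 mice. The series asks how GM-CSF made by ILC2s (innate lymphoid cells of the type 2 response) bears on gland macrophages.

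The 4 libraries held 9322 to 10090 barcodes and 111981802 to 122366588 UMIs, with a median of 10586 and 10085.5 UMIs per barcode in the Csf2+/- female and male libraries and of 8953 and 9003 in the Csf2-/- female and male libraries. After filtering, 8097 to 8965 cells per library and 34674 in all were kept, in 45 clusters and 14 classes with enough cells to test. Csf2 itself was at 126 and 138 CPM in ILC2-like cells of the Csf2+/- female and male libraries, and at 6.84 and 5.81 CPM in the Csf2-/- ones. The part of Csf2 that was deleted is not given in the sources used here, and 3′ UMIs from outside it would check nothing. Levels are in CPM, a gene's UMIs scaled to the same total in every sum, for UMIs summed over the cells of a class in a library, always in the order Csf2+/- female, Csf2+/- male, Csf2-/- female, Csf2-/- male, with means ± SD over n = 2 libraries per genotype. P-values below measure only the spread between these pooled libraries, and an exact permutation test of 2 against 2 libraries could not give a two-sided p below 0.333. Counts of different genes are not compared with each other, since capture differs between transcripts.

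Aldh1a2 and Vdr are the 2 genes whose levels differed most by genotype, and their promoter windows are shown because both were lower in 2 myeloid classes. In migratory DC-like cells, where Aldh1a2 was highest, the genotypes overlapped for Vdr. RefSeq promoter sequences of build GRCm38.p6 matched 5 of the 6 genes, all but Rdh10. Each window is the 250 bases before the annotated start. That of Aldh1a2 is chr9:71215539-71215788 on the plus strand, and that of Vdr is chr15:97908297-97908546 on the minus strand. Capitals mark a CCAAT box (CCAAT) in Aldh1a2 and GC boxes (GGGCGG) in Vdr, searched on both strands.
Aldh1a2: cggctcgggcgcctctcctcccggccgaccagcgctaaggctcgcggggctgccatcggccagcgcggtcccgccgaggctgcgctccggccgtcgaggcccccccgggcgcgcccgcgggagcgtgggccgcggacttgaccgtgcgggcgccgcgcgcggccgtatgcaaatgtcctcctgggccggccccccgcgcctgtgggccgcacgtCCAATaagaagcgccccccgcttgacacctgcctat
Vdr: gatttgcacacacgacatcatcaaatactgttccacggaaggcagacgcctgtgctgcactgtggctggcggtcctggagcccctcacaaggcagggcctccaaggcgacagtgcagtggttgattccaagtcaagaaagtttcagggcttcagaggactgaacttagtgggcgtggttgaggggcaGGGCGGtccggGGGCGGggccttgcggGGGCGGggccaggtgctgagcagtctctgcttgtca
The Aldh1a2 window was 77.6% G or C with 40 CpG dinucleotides, and the Vdr window 61.2% with 11, against medians of 52.4% and 6 over all windows. The CCAAT box of Aldh1a2 lay 36 to 32 bases before the start, and Vdr held 3 GC boxes. A CCAAT box was present in 33.8% and a GC box in 32.7% of the 32851 windows searched, and these motifs were chosen after the sequences were seen. Neither window held TTCNNNGAA, the form of a STAT site (7.02% of windows), AGGTCA, the hexamer bound by nuclear receptors (14.0%), or GAGGAAGT, a form of the PU.1 site (2.44%). A paired-hexamer response element for retinoic acid (DR5, 0.0883% of windows) or for vitamin D (DR3, 0.0396%) was also absent from both.

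Aldh1a2, the enzyme that makes retinoic acid, was concentrated in migratory DC-like cells and in a cluster led by Retnla and Fn1. It was at a far lower level in cDC2-like cells, described below. Aldh1a2 was lower in all 3 of these myeloid classes in Csf2-/- glands. Its highest level was in migratory DC-like cells, a class with all 14 of 14 fixed migratory DC markers raised, such as Ccr7 and Fscn1. There it stood at 614.7, 660.9, 290.3 and 291.03 CPM. Both Csf2-/- libraries lay below both Csf2+/- libraries, and libraries of 1 genotype were close together. The means were 638 ± 32.7 and 290.7 ± 0.499 CPM, a 2.19-fold lower level in Csf2-/- (log2 change -1.16, SE 0.115). Aldh1a2 was itself among the 10 leading genes of this cluster, but it was left out of the clustering and was not one of the fixed markers. The 12 macrophage markers summed to 242.5, 235.5, 489 and 385 CPM in these cells (6 of 12 higher in both Csf2-/- libraries, none at 0), and the 14 migratory DC markers to 20333, 18470, 20174 and 16978 CPM (6 lower and 2 higher, none at 0). Their part in the result was not tested.

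The second level was in a cluster led by Retnla, Fn1, Lyz1, Ear2 and Lpl, which was left without a cell type name because it raised 5 of 11 cDC2 markers, none of them among its leading genes. Aldh1a2 there was 130.02, 145.5, 50.7 and 21.4 CPM. The 2 Csf2-/- libraries were again below both others but differed from each other. Means were 138 ± 10.9 and 36.1 ± 20.7 CPM, 3.82-fold lower in Csf2-/- (log2 change -1.88, SE 0.339), over 308, 369, 110 and 92 cells. In the same cluster the 12 macrophage markers summed to 4629, 4557, 9035 and 7458 CPM, with 9 of 12 higher and 1 lower in both Csf2-/- libraries and none at 0, while the 11 cDC2 markers summed to 1713, 1897, 1329 and 1479 CPM, with 6 lower. The part of these shifts in the result was not tested.

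In cDC2-like cells, conventional type 2 DCs marked by Cd209a and Clec10a, Aldh1a2 stood at 16.2, 24.3, 6.69 and 6.55 CPM. The genotypes did not overlap. The means of 20.3 ± 5.72 and 6.62 ± 0.0969 CPM gave a 3.06-fold lower level in Csf2-/- (log2 change -1.60, SE 0.218). Within this class a dividing cluster led by Birc5, Ube2c and Cd209a had 31.8, 46.4, 6.41 and 7.39 CPM, and the larger cluster led by Cd209a and Tnfsf9 had 9.24, 15.3, 6.80 and 6.31 CPM. Both clusters were lower in both Csf2-/- libraries. In cDC2-like cells the 12 NK and ILC1 markers summed to 249.9, 228.2, 469.9 and 406.2 CPM (10 of 12 higher in both Csf2-/- libraries, none at 0) and the 12 alpha-beta T markers to 73.2, 127, 166 and 262 CPM (8 of 12 higher, none at 0), and their part in the result was not tested.

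**Figure D1:**
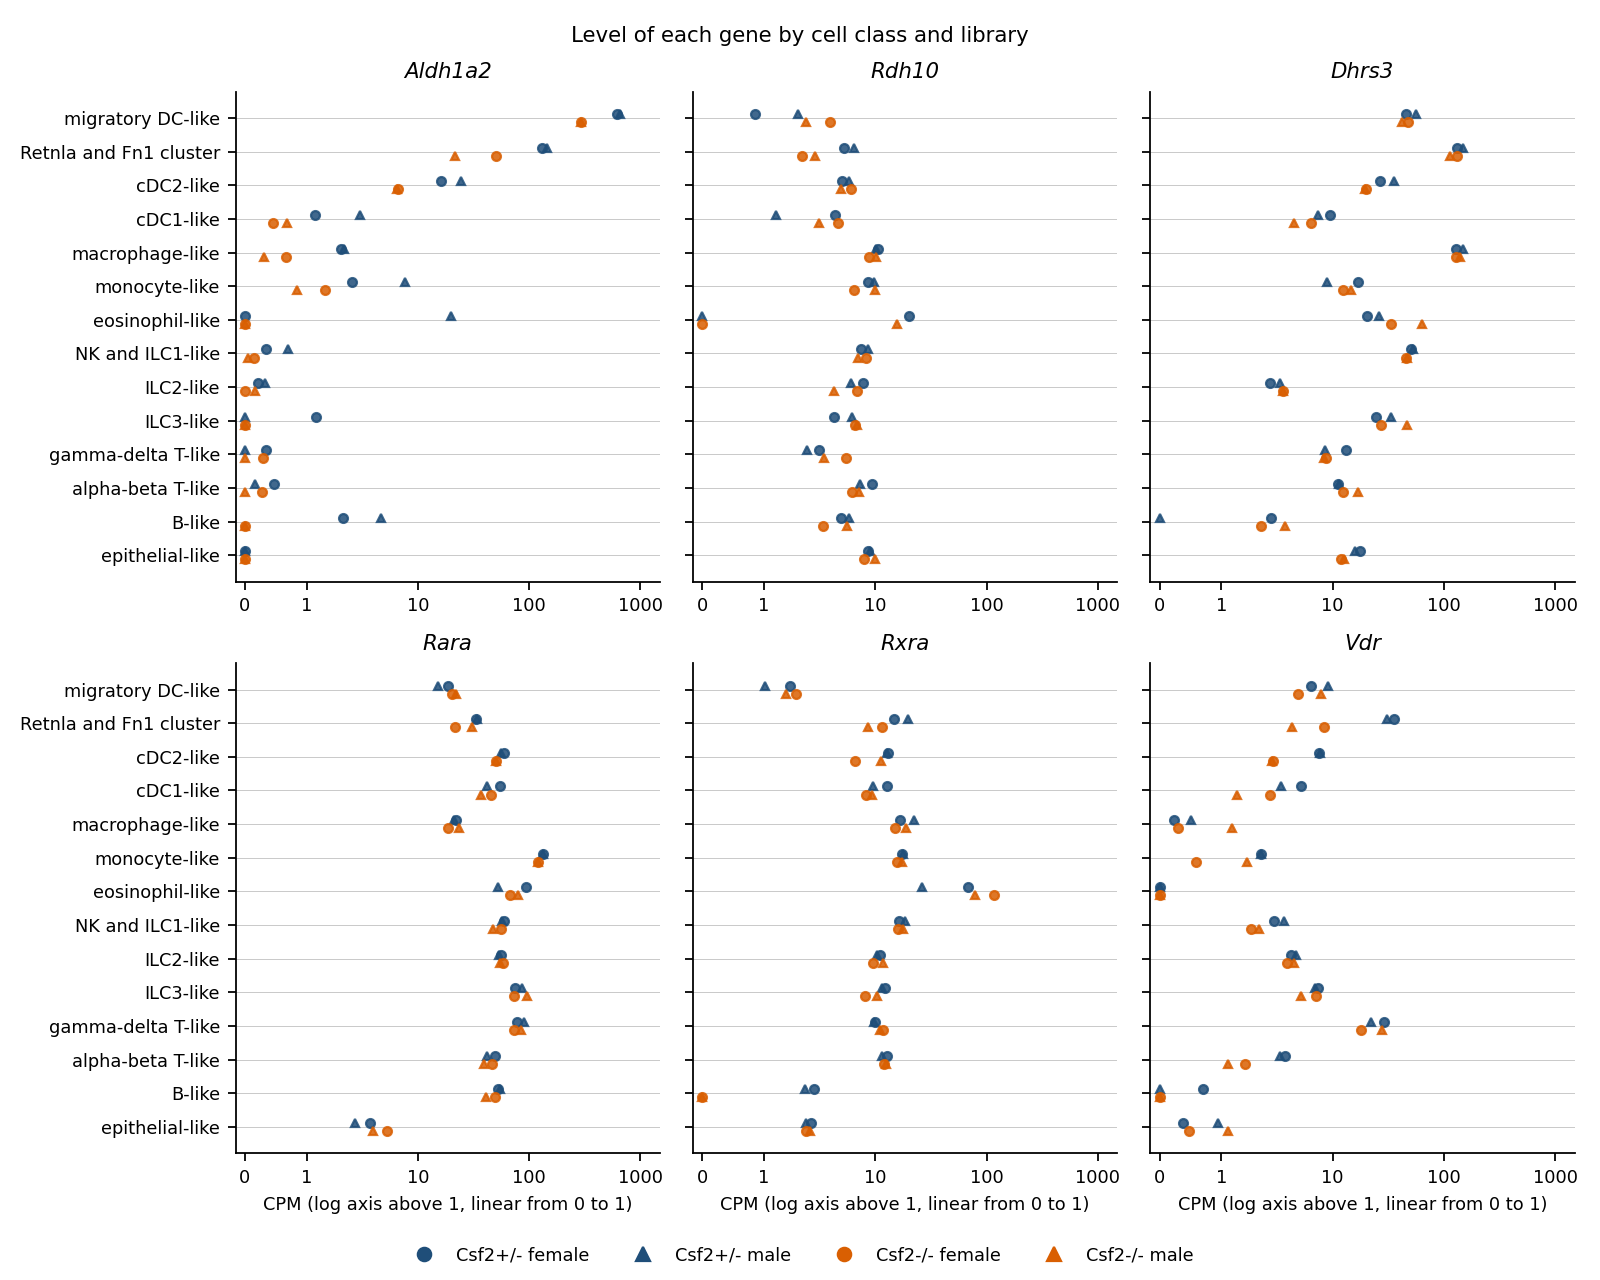
CPM of each of the 6 genes by class on a log axis, 1 point per library (linear from 0 to 1), circles for female and triangles for male libraries, coloured by genotype. Aldh1a2 peaks in migratory DC-like cells, at 614.7 and 660.9 CPM in Csf2+/- against 290.3 and 291.03 in Csf2-/-, and Rara in monocyte-like cells, at 121 to 133 CPM.

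The remaining classes held few Aldh1a2 UMIs. cDC1-like cells, the Xcr1 and Clec9a DCs that cross-present antigen, had 3, 7, 1 and 2 UMIs, a Csf2-/- to Csf2+/- ratio of 0.286 with a 95% counting interval of 0.0505 to 1.11. Macrophage-like cells had 26, 30, 11 and 7 UMIs among 1097 to 1654 cells, and NK and ILC1-like cells 13, 22, 4 and 1 among 1807 to 3001. Monocyte-like cells had 10, 34, 5 and 4 UMIs, a ratio of 0.210 with an interval of 0.0902 to 0.436. All these counts were lower in both Csf2-/- libraries, in classes far below migratory DC-like cells and the Retnla and Fn1 cluster. The ratio was 0.220 in macrophage-like cells and 0.216 in NK and ILC1-like cells, which serve below as the background. Both were close to that of monocyte-like cells, and the part of background RNA in these counts was not tested. The gap to cDC2-like cells was smaller. In the Csf2+/- female and male libraries cDC2-like cells had 16.2 and 24.3 CPM, not separate from eosinophil-like cells at 0 and 19.7 CPM. Monocyte-like cells had 2.53 and 7.67 CPM there. B-like cells had 3 and 4 UMIs in Csf2+/- and none in 168 and 102 Csf2-/- cells, which allows shares of up to 1.79% and 2.94% of cells with a UMI. Epithelial-like cells had none in any library.

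Over all kept cells Aldh1a2 gave 2364, 2506, 456 and 472 UMIs. Migratory DC-like cells supplied 61.1%, 52.1%, 65.4% and 78.4% of them, although they were 1.47%, 1.52%, 0.859% and 1.08% of cells. The Retnla and Fn1 cluster supplied 30.5%, 37.0%, 20.2% and 6.36%. In such whole-library totals, fewer cells of a type and less RNA per cell cannot be told apart. The CPM within each class are scaled for the number of its cells. They still depend on the mix of cells within the class, and the part of that mix was not tested.

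**Figure D2:**
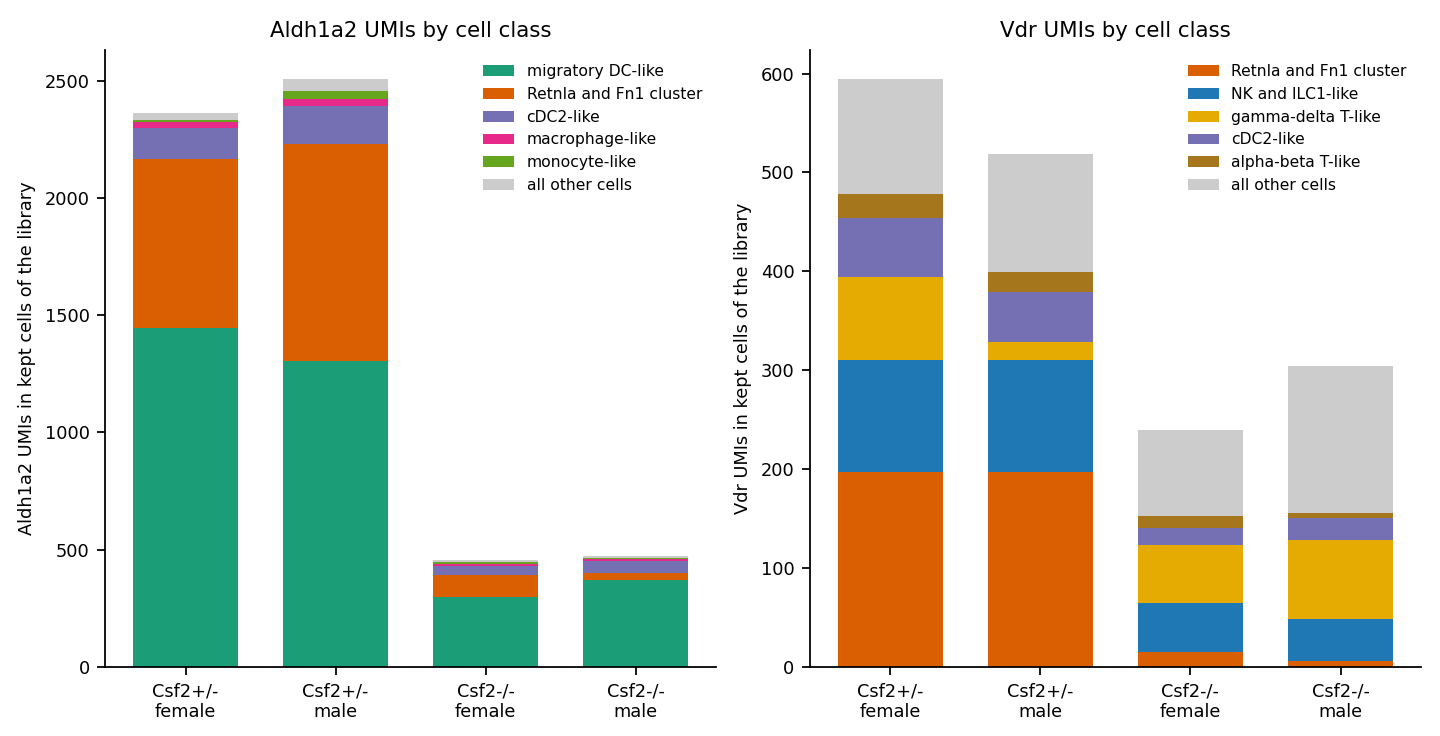
Number of Aldh1a2 (left) and Vdr (right) UMIs in the kept cells of each library, as 1 bar per library stacked by class, with all other cells in grey. The Aldh1a2 bars end at 2364 and 2506 UMIs in Csf2+/- and at 456 and 472 in Csf2-/-, and the Retnla and Fn1 cluster's part of the Vdr bars goes from 197 UMIs in both Csf2+/- libraries to 15 and 6.

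The share of cells with an Aldh1a2 UMI was compared at equal depth, because Csf2-/- cells were shallower. Migratory DC-like cells had median depths of 17838, 15836, 13093 and 13187 UMIs. As deposited, 75.2%, 80.5%, 54.5% and 61.1% of them had an Aldh1a2 UMI. Thinned to 3000 UMIs per cell, the expected shares were 51.3%, 55.7%, 34.3% and 35.5%. The exact binomial 95% intervals were 42.3% to 60.2%, 46.4% to 64.7%, 23.7% to 46.1% and 25.6% to 46.4%, and cover counting error only. Thinning left out 1, 2, 2 and 7 cells below that depth. Cells with 5 or more Aldh1a2 UMIs at this depth were 11.5%, 14.9%, 3.85% and 4.68%.

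In the Retnla and Fn1 cluster the shares were 65.6%, 64.2%, 30.9% and 17.4% as deposited and 28.3%, 29.2%, 11.1% and 5.40% thinned, with 3 to 5 cells left out per library. In cDC2-like cells they were 13.8%, 20.9%, 7.07% and 6.67% as deposited and 3.57%, 5.43%, 1.78% and 1.81% thinned. The order of the genotypes was the same at both depths. NK and ILC1-like cells, a lymphoid class that serves as the background, had 0.433%, 0.674%, 0.117% and 0.0553% as deposited, at median depths of 9021 to 11451 UMIs, and 0.106%, 0.242%, 0.0335% and 0.0297% thinned. The 3 myeloid classes were above that background in every library.

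**Figure D3:**
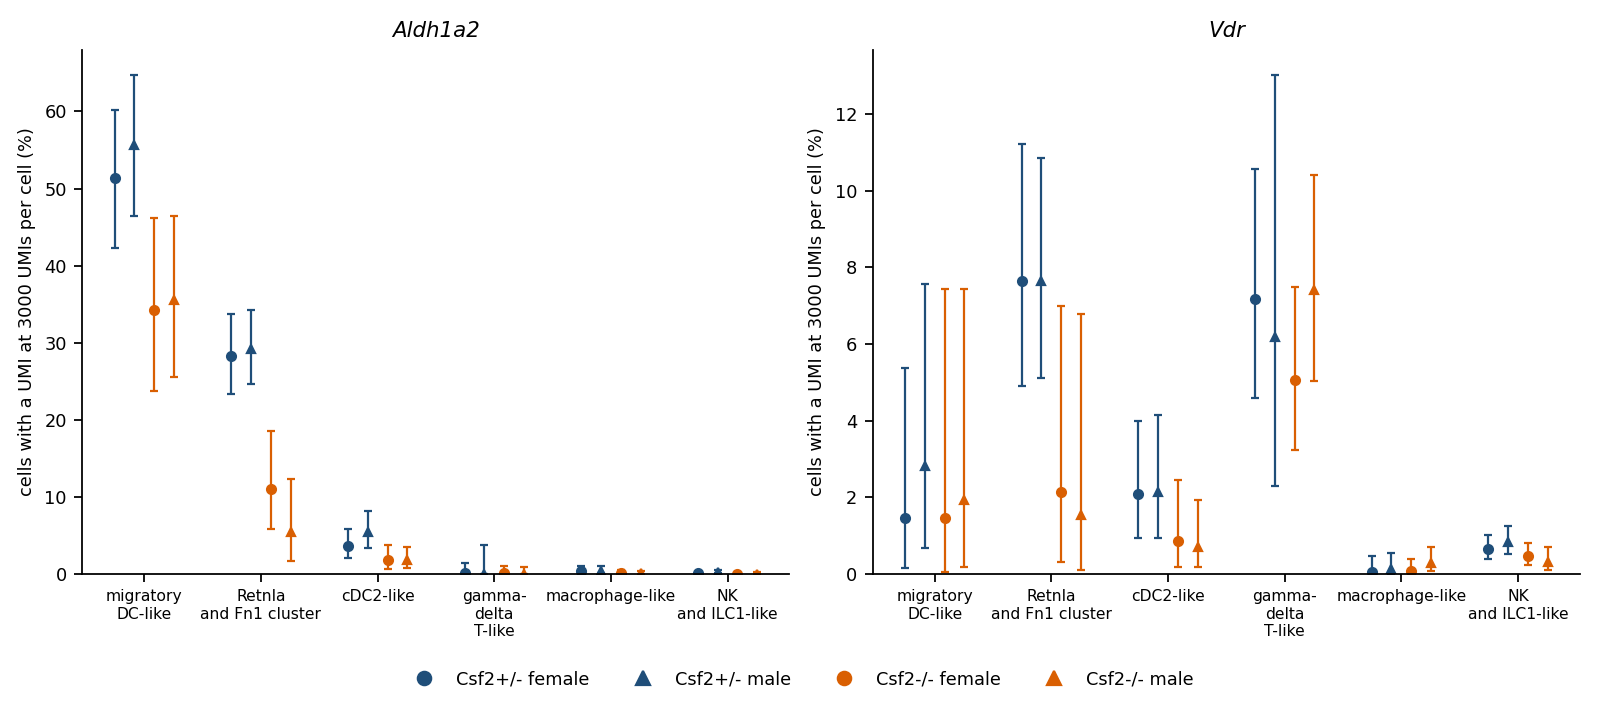
Expected share of cells (percent) with an Aldh1a2 or Vdr UMI when every cell is thinned to 3000 UMIs, by class and library, with exact binomial 95% intervals as bars. For Aldh1a2 the migratory DC-like shares are 51.3% and 55.7% in Csf2+/- against 34.3% and 35.5% in Csf2-/-; for Vdr the gamma-delta T-like shares overlap, from 5.05% to 7.40%.

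Rdh10, which performs the retinol-oxidising step before Aldh1a2, was low and broad. Macrophage-like cells had 10.5, 10.2, 8.76 and 10.1 CPM (log2 change -0.19, SE 0.142), and NK and ILC1-like cells 7.37, 8.67, 8.30 and 6.92 CPM. In the order of Csf2+/- means, no class from macrophage-like down to cDC1-like cells was separate from the next one. Gamma-delta T-like cells, the next to last, were separate from the migratory DC-like cells that came last. Migratory DC-like cells, where Aldh1a2 was highest, had only 0.851, 2.03, 3.90 and 2.36 CPM of Rdh10. In the Retnla and Fn1 cluster Rdh10 had 29, 41, 4 and 4 UMIs, or 5.22, 6.44, 2.21 and 2.86 CPM, a Csf2-/- to Csf2+/- ratio of 0.424 with a counting interval of 0.176 to 0.882. An epithelial cluster led by Wfdc18 and Cyp2f2 held the highest Rdh10 level of any cluster with over 60 UMIs, at 51.0, 60.3, 88.3 and 61.5 CPM.

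Dhrs3, which returns retinal to retinol and is itself a known target of retinoic acid, was highest in macrophage-like cells and in the Retnla and Fn1 cluster. It stood at 129, 148, 128 and 139 CPM in macrophage-like cells (log2 change -0.11, SE 0.0782) and at 132, 147, 132 and 114 CPM in the cluster (log2 change -0.18, SE 0.12). The genotypes overlapped in both. Within the macrophage-like class it varied by cluster. Cells led by Pf4, Folr2, F13a1 and Mrc1 had 265, 268, 257 and 227 CPM, and those led by Lyve1 and Ccl7 had 219, 199.9, 136 and 150.0 CPM. Cells led by Il1a and Plau had 55.4, 62.3, 58.8 and 51.4 CPM, below both other clusters in every library. In cDC2-like cells Dhrs3 was 26.6, 35.5, 19.7 and 19.7 CPM, with means of 31.1 ± 6.29 and 19.7 ± 0.048, 1.58-fold lower in Csf2-/- without overlap (log2 change -0.65, SE 0.155). In migratory DC-like cells it was 45.9, 56.2, 47.7 and 41.7 CPM and the genotypes overlapped.

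Rara, a retinoic acid receptor, was highest in monocyte-like cells at 133.1, 133.4, 121.2 and 121.1 CPM (log2 change -0.11, SE 0.0941). Gamma-delta T-like cells followed with 78.2, 90.4, 72.9 and 83.7 CPM, then ILC3-like cells with 75.2, 85.6, 73.8 and 94.9 CPM. In Csf2+/- libraries the monocyte-like level was separate from the next class. From gamma-delta T-like cells down through ILC3-like, eosinophil-like and NK and ILC1-like to cDC2-like cells no class was separate from the next one, and cDC2-like cells were separate from the ILC2-like cells that followed. In the classes that held Aldh1a2, Rara was 18.7, 15.2, 20.5 and 22.02 CPM in migratory DC-like cells, 33.0, 33.9, 21.5 and 30.7 CPM in the Retnla and Fn1 cluster (log2 change -0.38, SE 0.199), and 59.6, 56.2, 50.6 and 50.4 CPM in cDC2-like cells (log2 change -0.20, SE 0.0997). The migratory cells were higher and the other 2 classes lower in both Csf2-/- libraries.

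Rxra, the common partner of both kinds of receptor, lay between 9.88 and 19.4 CPM on average in 10 of the 14 classes of the Csf2+/- libraries. Eosinophil-like cells were above that range, and B-like, epithelial-like and migratory DC-like cells below it. Macrophage-like cells had 16.6, 22.2, 15.1 and 18.9 CPM, NK and ILC1-like cells 16.4, 18.5, 15.9 and 17.6 CPM, and monocyte-like cells 17.2, 17.6, 15.5 and 17.3 CPM, all with overlapping genotypes. Eosinophil-like cells reached 67.5, 26.3, 116.8 and 78.8 CPM from 26 UMIs in all, too few for the gene to enter the fit. In the Retnla and Fn1 cluster Rxra was 14.6, 19.6, 11.6 and 8.57 CPM (log2 change -0.74, SE 0.284), and in cDC2-like cells 13.1, 12.7, 6.52 and 11.3 CPM (log2 change -0.51, SE 0.226), lower in both Csf2-/- libraries. Migratory DC-like cells had 1.70, 1.01, 1.95 and 1.57 CPM, the lowest level among the DC classes.

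Vdr, the vitamin D receptor, was highest in 2 classes, a myeloid and a lymphoid one. In the Retnla and Fn1 cluster it was 35.5, 30.9, 8.27 and 4.28 CPM, from 197, 197, 15 and 6 UMIs. The genotypes were far apart. Means were 33.2 ± 3.20 and 6.28 ± 2.82 CPM, 5.29-fold lower in Csf2-/- (log2 change -2.34, SE 0.287). The Csf2-/- to Csf2+/- ratio of summed counts was 0.198, with a counting interval of 0.121 to 0.306. Gamma-delta T-like cells, which express Il17a and Trdc, had 28.9, 22.00, 17.8 and 27.6 CPM with overlapping genotypes (log2 change -0.26, SE 0.253). The difference between these 2 classes was not tested.

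cDC2-like cells had 7.50, 7.71, 2.92 and 2.83 CPM of Vdr, from 60, 51, 17 and 22 UMIs. Both Csf2-/- libraries were lower, with means of 7.60 ± 0.148 and 2.87 ± 0.0632 CPM, 2.65-fold apart (log2 change -1.40, SE 0.273). Migratory DC-like cells, where Aldh1a2 differed, had 6.38, 9.12, 4.87 and 7.87 CPM of Vdr with overlap (log2 change -0.27, SE 0.503). NK and ILC1-like cells had 2.98, 3.61, 1.85 and 2.18 CPM (log2 change -0.73, SE 0.204) and alpha-beta T-like cells 3.71, 3.35, 1.64 and 1.15 CPM (log2 change -1.30, SE 0.417), lower in both Csf2-/- libraries at a low level. ILC2-like cells overlapped at 4.26, 4.68, 3.89 and 4.48 CPM. Macrophage-like cells had 3, 7, 5 and 28 Vdr UMIs, most of them in the Csf2-/- male library, and eosinophil-like cells had none.

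Shares of cells with a Vdr UMI had the same order by genotype in these 2 myeloid classes. In the Retnla and Fn1 cluster they were 24.0%, 26.6%, 11.8% and 6.52% as deposited and 7.64%, 7.63%, 2.13% and 1.54% thinned to 3000 UMIs. In cDC2-like cells they were 9.84%, 10.6%, 4.35% and 2.83% as deposited and 2.09%, 2.14%, 0.864% and 0.712% thinned. NK and ILC1-like cells had 2.63%, 2.65%, 1.60% and 1.38% as deposited and 0.646%, 0.821%, 0.456% and 0.311% thinned, and they may express the gene themselves. The thinned Csf2-/- shares of cDC2-like cells had intervals of 0.186% to 2.46% and 0.169% to 1.94%, which include the shares of NK and ILC1-like cells.

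Summed over the 6 genes, 60 of 84 pairs of a gene and a class passed the low-count filter of the fit. Of these, 6 had an adjusted p under 0.05, all lower in Csf2-/-: Aldh1a2 in migratory DC-like cells, Aldh1a2 and Vdr in the Retnla and Fn1 cluster, and Aldh1a2, Vdr and Dhrs3 in cDC2-like cells. The share of all tested genes called lower was 0.187% in migratory DC-like cells, 5.4% in the Retnla and Fn1 cluster and 2.31% in cDC2-like cells. Since the genes were chosen with this contrast in view, nothing is read from that count, or from a call being kept in other settings. Of the 6, 4 missed the threshold in other settings: Aldh1a2 in the Retnla and Fn1 cluster in 5 of 11, among them leaving out either Csf2+/- library, and in cDC2-like cells Aldh1a2 in 1 of 12 (Leiden resolution 0.8, log2 change -2.39), Vdr in 1 (DESeq2) and Dhrs3 in 2 (DESeq2, and leaving out the Csf2+/- male library).

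Over the same 60 pairs, both Csf2-/- libraries were below both Csf2+/- libraries in 25, above them in 7 and overlapped with them in 28. Over all genes and classes tested the shares were 18.5% below and 23.3% above. This contrast too was used to choose the genes, and nothing is read from the counts.

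**Figure D4:**
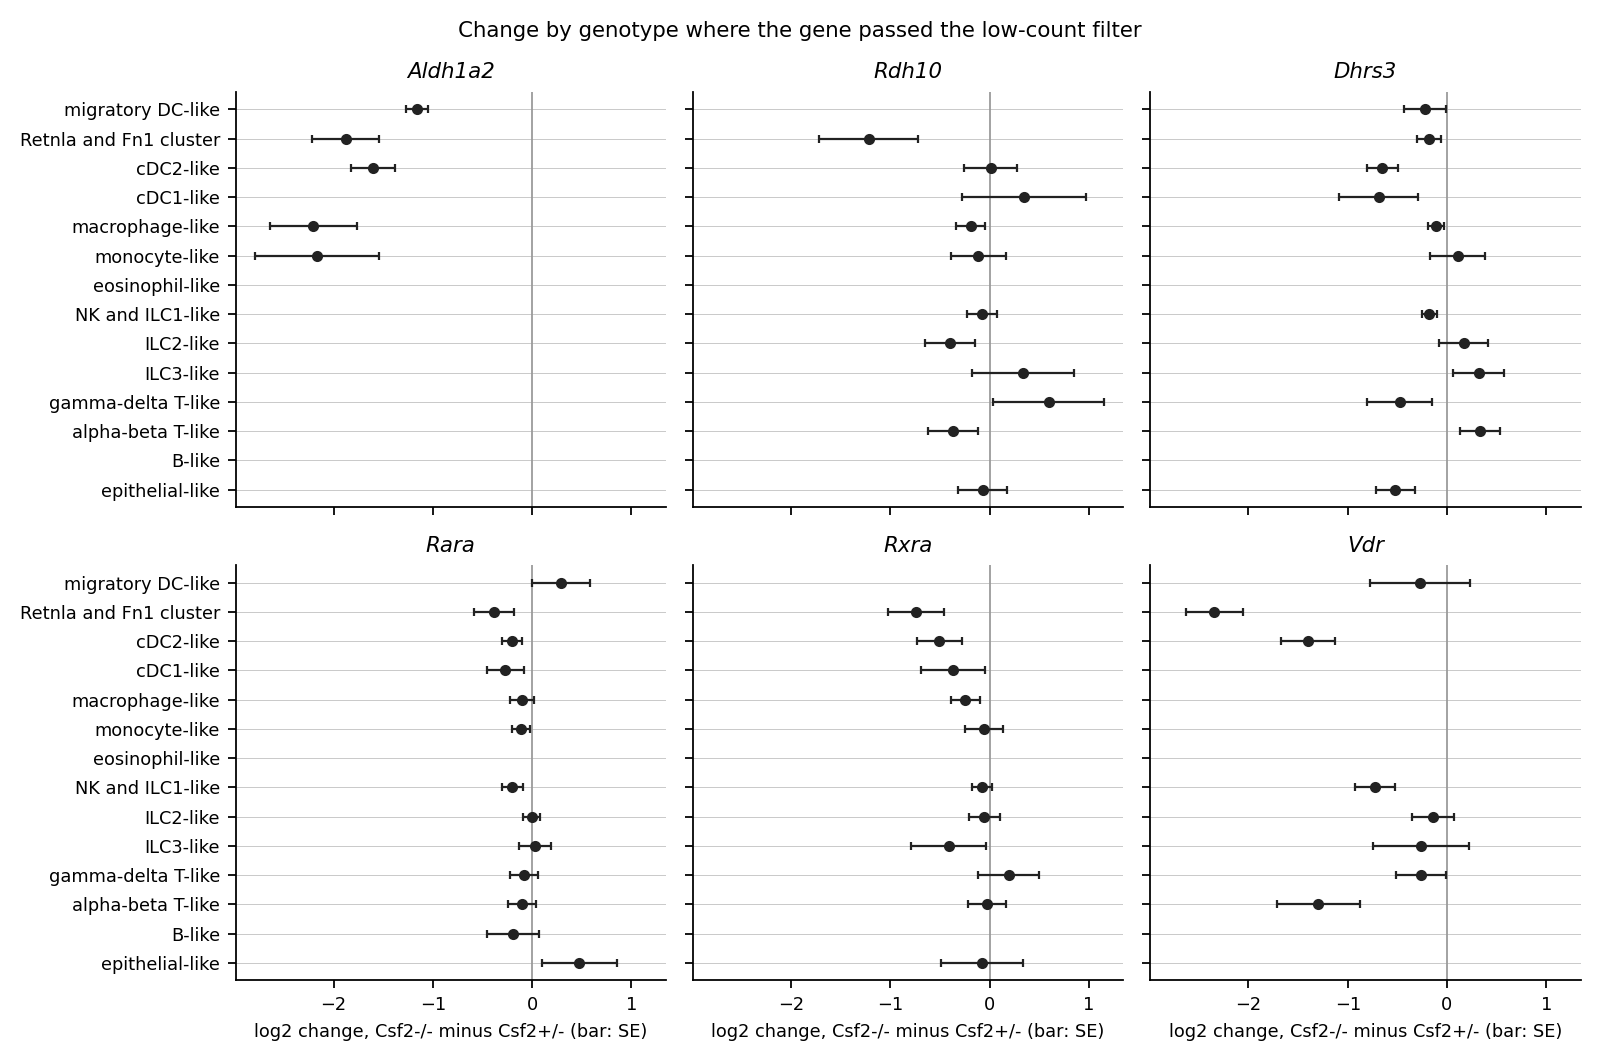
Log2 change, Csf2-/- minus Csf2+/-, of each gene in each class where it passed the low-count filter, with SE bars. Aldh1a2 lies below 0 in all 5 classes shown, from -1.16 in migratory DC-like cells to -2.21 in macrophage-like cells. The macrophage-like value rests on 26, 30, 11 and 7 UMIs. Rara lies on both sides of 0.

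The difference between the sexes was not used to choose the genes and could be tested, with 1 residual degree of freedom. None of the 60 pairs passed an adjusted p of 0.05 in edgeR, where 0.812% of all gene and class pairs were called in either direction. There were 6 pairs at an unadjusted p under 0.05. The lowest adjusted p was 0.159, for Rara in NK and ILC1-like cells (male minus female log2 -0.19, SE 0.0585). DESeq2 gave 0 such pairs, with no adjusted p for 10.

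Apart from the 6 genes, 83 genes on 10 lists of retinoid and vitamin D biology were examined, of which 59 entered a fit. Of 516 gene and class pairs, 11 passed an adjusted p of 0.05 (edgeR quasi-likelihood test, Benjamini-Hochberg), 5 higher and 6 lower in Csf2-/-, in 4 classes. Over all classes 0.566% of gene and class pairs were called higher and 0.75% lower. Leaving out a Csf2-/- library gave 28 list pairs (female left out) or 19 (male left out). Migratory DC-like cells had none among 33 list genes, where 0.387% of all genes were called, and macrophage-like cells none among 47. In those macrophage-like cells no gene at all (0.0%) passed by edgeR, with 1784 genes at an unadjusted p under 0.05, and 123 passed by DESeq2. With sex as a block, which leaves 1 residual degree of freedom, 1255 genes passed in macrophage-like cells, 10 of them among the 47 list genes (4 higher and 6 lower in Csf2-/-).

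The Retnla and Fn1 cluster held 7 of the 11, with 4 higher and 3 lower among 45 list genes (4.24% and 5.4% of all genes) and a list median of 0.05 against 0.01 for all genes. Nr1h3, a sterol-sensing partner of retinoid X receptors (LXRα), rose from 8.28 and 7.38 to 20.4 and 37.8 CPM (log2 change 1.86, SE 0.285, adjusted p = 0.00104), and passed in 11 of 11 other settings. Pparg, a fatty acid-sensing partner, rose from 77.3 and 62.1 to 89.4 and 119.9 CPM (log2 change 0.57, adjusted p = 0.0417). The coactivator Ncoa3 rose from 74.9 and 81.4 to 100.4 and 113 CPM (log2 change 0.44, adjusted p = 0.0302). The acyltransferase Dgat1, which can esterify retinol, rose from 17.1 and 23.9 to 47.4 and 29.3 CPM (log2 change 0.93, adjusted p = 0.0404), but its sign turned when predicted doublets were kept.

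Among the genes that fell in that cluster was Dhrs9, a retinol dehydrogenase, with 45, 36, 1 and 1 UMIs, a ratio of 0.0916 with a counting interval of 0.0109 to 0.342 (adjusted p = 0.00677). The receptor Rarg fell from 34.8 and 33.0 to 23.2 and 18.6 CPM (log2 change -0.68, SE 0.203, adjusted p = 0.0469). The orphan receptor Nr4a2 fell from 203.1 and 224 to 175 and 143 CPM (log2 change -0.42, adjusted p = 0.0423). Rarg and Nr4a2 were the calls of this cluster kept least often in other settings. Their log2 changes there ran from -0.90 to -0.22 (Rarg) and from -0.61 to -0.26 (Nr4a2). Rarb, a receptor gene that retinoic acid is known to induce, stood at 11.2, 10.8, 6.07 and 3.57 CPM and did not pass (log2 change -1.14, adjusted p = 0.0624). Fabp5, which carries retinoic acid and fatty acids, averaged 158 and 87.9 CPM (log2 change -0.82, adjusted p = 0.191), and it passed with sex as a block. The 7 genes called in this cluster passed in 5 to 11 of 11 other settings each, and the macrophage marker sums given above moved with them.

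**Figure D5:**
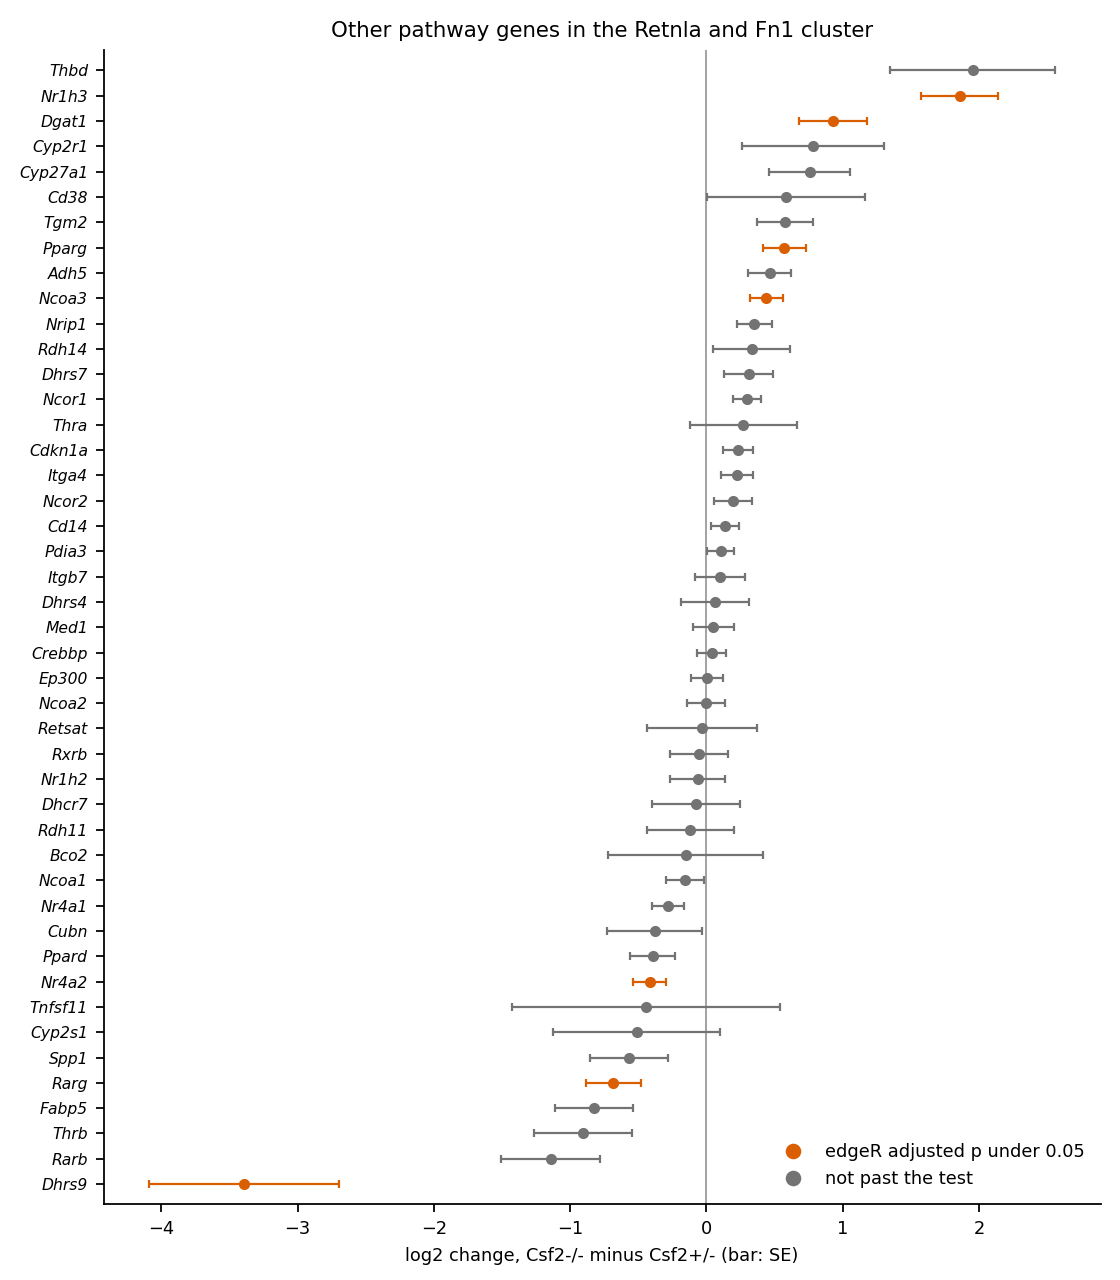
Log2 change, Csf2-/- minus Csf2+/-, of the 45 other list genes that entered the fit of the Retnla and Fn1 cluster, with SE bars, in orange where the edgeR adjusted p was under 0.05. There are 4 orange genes above 0, led by Nr1h3 at 1.86, and 3 below 0, with Dhrs9 the lowest at -3.39.

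Outside that cluster, the integrin Itga4, a gene of lymphocyte homing, rose in cDC2-like cells from 168 and 183 to 230.5 and 217 CPM (log2 change 0.35, SE 0.0896, adjusted p = 0.0404). In cDC1-like cells Cd14, a lipopolysaccharide co-receptor that vitamin D is known to induce, fell from 19.8 and 22.0 to 6.40 and 9.28 CPM (log2 change -1.41, adjusted p = 0.0208). That level came from 142 UMIs in all. Macrophage-like cells averaged 636 CPM of Cd14 and monocyte-like cells 296 CPM, and their part in this fall was not tested. Nr4a1 fell in cDC1-like cells from 452 and 489 to 359 and 296 CPM (log2 change -0.55, adjusted p = 0.0322). In ILC3-like cells the cytokine Tnfsf11 (RANKL) fell from 379.8 and 299 to 227 and 225 CPM (log2 change -0.63, adjusted p = 0.0168). These 4 calls were kept in 9 of 12 (Itga4), 10 of 12 (Cd14), 10 of 12 (Nr4a1) and 7 of 10 (Tnfsf11) other settings. With doublets kept the log2 change of Cd14 was only -0.49 (adjusted p = 0.465), and Tnfsf11 did not pass by DESeq2 or without the Csf2+/- female or the Csf2-/- male library. Itga4 did not pass by DESeq2 or without either female library, Cd14 by DESeq2, and Nr4a1 with doublets kept or without the Csf2-/- male library. Among the classes tested, which leave out plasmacytoid DC-like cells, the gut-homing chemokine receptor Ccr9 was highest in ILC3-like cells with a mean of 47.2 CPM. Ccr9 passed in no class in the main fit, but it passed in cDC2-like cells with sex as a block.

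Several other enzymes of the pathway gave few UMIs in the kept cells. Aldh1a1 and Aldh1a3, the other retinal dehydrogenases, gave 282 and 640 UMIs in all. The retinoic acid-degrading enzyme Cyp26b1 gave 340 and Cyp26a1 23. For vitamin D, the activating enzyme Cyp27b1 gave 9 UMIs, the degrading enzyme Cyp24a1 gave 1 and the carrier Gc none. Among the classes tested, Fabp5 was highest in migratory DC-like cells, the class with the most Aldh1a2, at a mean of 2672 and 2302 CPM (log2 change -0.24, adjusted p = 0.406).

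Likeness between genes was measured over 56 sums of a class in a library (14 classes, 10619 genes) as Pearson's r of log2(CPM + 1), where sums share libraries and depth. The genes most like Aldh1a2 were Flrt3 (r = 0.89), Scn2b (0.87), Slc27a3 (0.86), Upb1 (0.86) and St18 (0.85). Rara was most like Stk10 (0.92) and Anp32a (0.91), Rxra like Notch1 (0.89), and Vdr like Prelid2 (0.82) and Marveld1 (0.82). Dhrs3 reached 0.75 with Srxn1 and Rdh10 0.70 with Abcb10. Between the 6 genes, r was 0.41 for Aldh1a2 with Dhrs3, 0.37 for Aldh1a2 with Vdr, 0.48 for Rara with Rxra and -0.41 for Aldh1a2 with Rdh10, the last 2 being the highest and lowest of all pairs.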

How the data were processed

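UMI counts per gene and cell barcode were deposited by the authors as 1 matrix per library, with no normalization. The submitters' processing notes name Cell Ranger 7.0.0 and build GRCm39. The 6 genes and the lists were chosen with earlier results of these data known. Barcodes below 500 UMIs, below 300 genes or above 10% mitochondrial UMIs were dropped, the highest-scoring Scrublet doublets were removed at the share their barcode number predicts (0.008 per 1000 barcodes, 653 to 787 per library), and at most 36 barcodes were shared by a library with another. Cells were clustered without the 6 genes and the list genes (scanpy 1.11.5, 40 components, Leiden resolution 1.5) and named from fixed markers. UMIs were summed per class and library for classes with at least 50 cells in each library, and tested by edgeR 4.0.16 (R 4.3.3; TMM, filterByExpr, robust quasi-likelihood, genotype only, 2 residual degrees of freedom, Benjamini-Hochberg within a class at 0.05). DESeq2 1.42.0, no low-count filter, RLE scaling, sex as a block, other cell filters, resolution 0.8, doublets kept and each library left out were the alternatives. Shares at 3000 UMIs per cell are expectations over all draws, with exact binomial 95% intervals (scipy 1.17.1). A count of 0 allows up to 3 counts. Intervals and such limits cover counting error only. Library depth was 111981802 to 122366588 UMIs. Genes named are the 6, list genes with an adjusted p under 0.05 and otherwise up to 4 per list averaging 10 CPM or more, and the 5 genes most like each of the 6. A few others (Cyp26a1, Cyp26b1, Cyp27b1, Cyp24a1, Gc, Aldh1a1, Aldh1a3 and Rarb) were named after their values were seen. Of 26033 features, 312 share a symbol with another. Libraries of the same sex did not pair by label: replicate numbers were given in accession order.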

Additional observations from a re-analysis of the deposited data

How the results depend on the processing

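Aldh1a2 in migratory DC-like cells had a log2 change between -1.25 and -1.12 over 12 alternatives, which describes the values the genes were chosen on and supports nothing. Aldh1a2 in the Retnla and Fn1 cluster was -1.51 with doublets kept and -2.72 to -1.42 with a library left out, and did not pass with doublets kept, with sex as a block, at 5% mitochondrial UMIs or without either Csf2+/- library. In cDC2-like cells Aldh1a2 was -2.39 (not past) and Vdr -2.44 at resolution 0.8, Aldh1a2 was -1.87 to -1.31 with a library left out, Vdr did not pass by DESeq2, and Dhrs3 did not pass by DESeq2 or without the Csf2+/- male library. Vdr in the Retnla and Fn1 cluster was -2.98 to -1.98 with a library left out. That cluster did not form at resolution 0.8, which therefore gives no value for it. Dgat1 there was -0.93 with doublets kept. The cause of these shifts was not tested.

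Counts of genes past the threshold moved more. By DESeq2 they were 268 (cDC2-like), 44 (cDC1-like), 123 (macrophage-like) and 445 (Retnla and Fn1 cluster), against 477, 98, 0 and 969. With no low-count filter they were 244 (migratory DC-like, against 31), 858, 339 and 139 (macrophage-like), and 37 for list genes, against 11. With doublets kept they were 14 (migratory DC-like), 1 (macrophage-like), 184 (Retnla and Fn1 cluster) and 7 (list genes), and at resolution 0.8 they were 19 (migratory DC-like) and 1926 (cDC2-like). Leaving out 1 library gave 56 to 160 in migratory DC-like, 427 to 570 in cDC2-like, 145 to 312 in cDC1-like and 0 to 404 in macrophage-like cells, 367 to 1269 in the Retnla and Fn1 cluster and 13 to 28 for list genes; an arm with 1 library is then assumed to vary like the other.

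With sex as a replicate block the counts were 121 in migratory DC-like, 1006 in cDC2-like, 173 in cDC1-like and 1255 in macrophage-like cells, 947 in the Retnla and Fn1 cluster and 28 for list genes, and the log2 change of Aldh1a2 in migratory DC-like cells was -1.16. Libraries share only their sex: the correlation of same-sex deviations was 0.05 in migratory DC-like, -0.12 in cDC2-like, -0.04 in cDC1-like, 0.40 in macrophage-like and 0.02 in Retnla and Fn1 cluster cells. No pair of the 6 genes passed by sex by DESeq2, with no low-count filter or with doublets kept, the alternatives run for the sexes. With 2 libraries a genotype and few UMIs for Vdr and Rdh10 in most classes, smaller differences were not detectable at this depth.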

Other observations

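Some clusters were too small or too mixed for a test and are given as values only, in the library order used above. Neutrophil-like cells (125 cells, led by S100a9 and S100a8) had 130.4, 103, 127 and 137 CPM of Rara from 65 UMIs, a level like that of monocyte-like cells, and no Aldh1a2 or Vdr UMI in any library. Plasmacytoid DC-like cells (104 cells, led by Grm8, Ly6d and Siglech) also held no Aldh1a2 UMI, and had 7 Vdr UMIs in all. An unnamed cluster of 142 cells led by Fabp4, Igfbp7 and haemoglobin genes had 120.4, 165, 195 and 192 CPM of Dhrs3 from 220 UMIs, and an unnamed cluster of 71 cells led by Lyve1, Ace and Mrc1 had 82.8, 136, 165 and 156 CPM from 210 UMIs. Stroma-like cells (55 cells, led by Col3a1 and Col1a2) had 12 Aldh1a2 UMIs in all, at 10.2, 25.4, 0 and 10.4 CPM.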
